A study of Mus musculus with 26 samples.

Results

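The genes described here encode the protein chains of the mitochondrial respiratory chain and of ATP synthase, together with a set of complex I assembly factors. They were taken as every protein-coding mouse gene whose symbol begins with Nduf, Uqcr, Atp5 or Cox followed by a digit from 4 to 8, or is Sdha, Sdhb, Sdhc or Sdhd. This gave 96 of the 21883 protein-coding genes placed on chromosomes. H3K4me3, the trimethylation of histone H3 lysine 4 that marks active and poised promoters, had been profiled by ChIP-seq in 2 cell populations. The first was Ebf1-/- progenitors, progenitor cells that lack the B-lineage transcription factor EBF1. The second was Early-B cells, made from the same Ebf1-/- progenitors by giving them EBF1 through a MigR1-EBF1.ER vector and culturing them for 2 days on OP9 stromal cells with 4-O-Hydroxy-tamoxifen and the cytokines IL-7, FLT3-L and SCF. Both populations therefore carried the Ebf1 deletion, and the EBF1 of the Early-B cells came from the vector alone. The labels list 2 H3K4me3 samples per population, but each population had 1 peak list, so no spread between replicates could be given and no difference between the lists was tested.

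The respiratory chain sits in the inner mitochondrial membrane. Complex I, the NADH dehydrogenase, and complex II, succinate dehydrogenase, pass electrons to ubiquinone. Complex III carries them on to cytochrome c, and complex IV, cytochrome c oxidase, hands them to oxygen. The proton gradient built on the way drives ATP synthase. Most of the chains are encoded in the nucleus and used in almost every cell, while complex IV also has chains made mainly in muscle, lung or testis. The transcription factors NRF1, GABPA and YY1 are known regulators of the nuclear genes.

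A gene was counted in a list when a peak lay within 1 kb of either end of its span. Where several did, the peak with the highest −log10 p given by the authors' peak caller stood for the gene. Where a pair of values follows a gene without further words, the Early-B list comes first and the progenitor list second. Of the 96 genes, 88 had such a peak in both lists, a share of 91.7% against 53.5% of all protein-coding genes. Cox7a1 alone had one in the Early-B list only, a class that holds 5.75% of all genes, and Cox4i2 alone in the progenitor list only, a class that holds 2.34%. The other 6 were in neither list, the class of 38.4% of all genes: Cox5a, Cox7a2, Cox6b2, Cox7b2, Cox8b and Cox8c. All 8 exceptions were complex IV genes. Every gene of the core, accessory and assembly groups of complex I, and every gene of complexes II and III and of ATP synthase, had a peak in both lists.

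**Figure D1:**
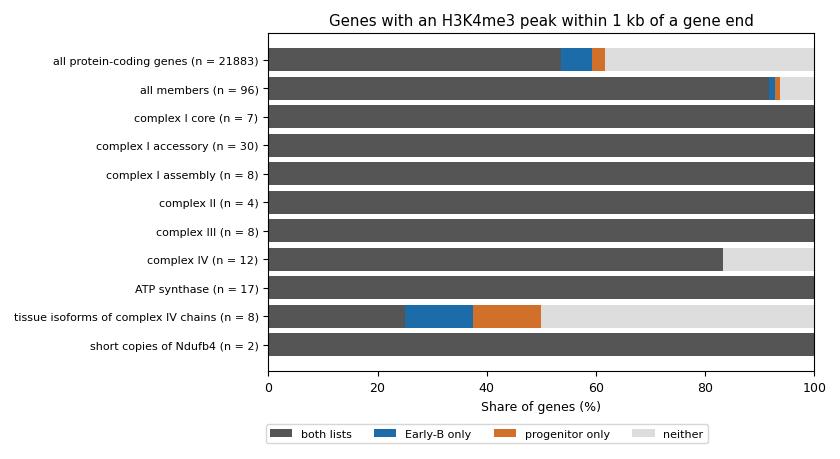
Share of genes (x axis, %) with an H3K4me3 peak near a gene end (within 1 kb) in both lists, in one list or in neither, for all protein-coding genes, all members and each group of members (y axis, with the number of genes). Among the groups, those of complex IV and of its tissue isoforms hold all genes that lack a peak in a list.

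Of the exceptions, Cox5a and Cox7a2 encode the common complex IV chains of most tissues, and both had strong peaks over their transcription start. The RefSeq start of Cox5a lies 3904 bp inside the gene's span, beyond the 1 kb window. The peak over it was 5242 bp long with a pileup of 133 in the Early-B list and 6762 bp long with a pileup of 128 in the progenitor list. Pileup is the read coverage the peak caller wrote for a peak, and it ranks peaks within a list only. The RefSeq start of Cox7a2 lies 11569 bp inside its span. Its peak was 2717 bp long with a pileup of 145 in the Early-B list and 2672 bp long with a pileup of 181 in the progenitor list. Both genes were thus marked at their start in both populations.

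The tissue isoforms differed from these. Cox8b, a chain of heart, muscle and brown fat, and Cox6b2 and Cox8c, both chains of testis, had no peak within 5 kb in either list. Cox7b2, another testis chain, had 1 peak inside its span, 352 bp long with a −log10 p of 2.59 in the Early-B list, and none in the progenitor list. Cox7a1, the heart and muscle form of the chain that Cox7a2 encodes elsewhere, had an Early-B peak of 1725 bp at chr7:30182890-30184614 that covered its start, with a pileup of 23.4 and a −log10 p of 8.15. That pileup is at the 13.6 percentile of the Early-B gene peaks. Cox4i2, the lung form of Cox4i1, had a progenitor peak of 832 bp at chr2:152753782-152754613 with a pileup of 25.01 and a −log10 p of 7.79. That pileup is at the 9.7 percentile of the progenitor gene peaks. Cox4i2 was in the progenitor list only through the 1 kb window. With 2.5 kb, Early-B peaks near both gene ends put it in both lists. Those peaks were 326 bp at chr2:152752380-152752705, with a pileup of 14.7 and a −log10 p of 2.59, and 684 bp at chr2:152766465-152767148, with 15.5 and 2.41. Both single-list peaks thus had pileups low among the gene peaks of their list.

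Marker genes of other cell types were counted beside Cox7a1, where 5.75% of all genes are in the Early-B list only and 2.34% in the progenitor list only. Of 12 stromal marker genes, 7 had an end peak in the Early-B list only and 5 in both, and OP9 stroma is named in the labels for the culture of the Early-B cells. Of 8 muscle and heart markers, 1 (Actc1, cardiac actin) was in the Early-B list only, 1 in both and 6 in neither. None of 6 testis markers had a peak in either list. Of 10 B-lineage markers, 6 were in the Early-B list only and 4 in both, and of 8 progenitor markers, 4 were in the progenitor list only and 4 in both. The part of other cells in the Cox7a1 peak was not tested.

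The remaining pair of isoforms had peaks in both lists that lay among low ones. Cox6a2, the heart and muscle form of Cox6a1, had a peak of 2495 bp for Early-B cells against 2264 bp for progenitors, with pileups of 52.9 and 96.3, but the same peaks also touched the end of the integrin gene Itgad. Ndufa4l2, the hypoxia-induced relative of Ndufa4, had peaks of 1027 and 794 bp with pileups of 17.3 and 36.5, shared with Stac3. Inside its span it also had stronger peaks, of 3210 bp with a pileup of 67.2 for Early-B cells against 2937 bp and 81.4 for progenitors. The pileups of the end peaks of Cox6a2 and Ndufa4l2 stood at the 25.5 and 8.0 percentiles of the Early-B gene peaks.

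The promoters of 2 such pairs are printed. In each, the same protein chain is encoded by a gene with a peak over its start in both lists and by a gene for which this did not hold. Cox8b had no peak over its start in either list, and Cox7a1 had one in the Early-B list only. The pair of Cox6b1 and Cox6b2 and the pair of Cox7b and Cox7b2 also met this description but are not printed. The sequences are those of RefSeq, build GRCm38.p6, from 250 bases before the transcription start to 50 bases from it on, 5′ to 3′ along the gene's strand. Capitals mark the ETS letters CCGGAAGT on either strand, here seen as their reverse complement. Cox8a is at chr19:7217567-7217866 on the minus strand, Cox8b at chr7:140900397-140900696 on the minus strand, Cox7a2 at chr9:79759804-79760103 on the minus strand and Cox7a1 at chr7:30183921-30184220 on the plus strand.
Cox8a: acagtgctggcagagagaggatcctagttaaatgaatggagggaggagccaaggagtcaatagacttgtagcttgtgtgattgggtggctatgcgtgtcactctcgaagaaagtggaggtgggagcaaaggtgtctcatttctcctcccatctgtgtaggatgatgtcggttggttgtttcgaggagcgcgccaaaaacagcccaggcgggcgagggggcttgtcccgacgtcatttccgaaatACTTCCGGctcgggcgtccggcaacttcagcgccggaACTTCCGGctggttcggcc
Cox8b: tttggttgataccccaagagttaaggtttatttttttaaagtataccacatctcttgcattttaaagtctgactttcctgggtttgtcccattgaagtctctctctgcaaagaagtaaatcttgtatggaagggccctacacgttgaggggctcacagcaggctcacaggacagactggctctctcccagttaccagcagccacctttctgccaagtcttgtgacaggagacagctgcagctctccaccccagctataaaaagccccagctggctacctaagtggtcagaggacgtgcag
Cox7a2: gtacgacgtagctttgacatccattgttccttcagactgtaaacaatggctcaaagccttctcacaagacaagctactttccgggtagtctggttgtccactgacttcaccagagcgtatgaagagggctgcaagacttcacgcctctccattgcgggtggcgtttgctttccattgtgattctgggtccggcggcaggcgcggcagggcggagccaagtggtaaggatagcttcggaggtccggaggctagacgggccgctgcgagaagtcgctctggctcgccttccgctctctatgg
Cox7a1: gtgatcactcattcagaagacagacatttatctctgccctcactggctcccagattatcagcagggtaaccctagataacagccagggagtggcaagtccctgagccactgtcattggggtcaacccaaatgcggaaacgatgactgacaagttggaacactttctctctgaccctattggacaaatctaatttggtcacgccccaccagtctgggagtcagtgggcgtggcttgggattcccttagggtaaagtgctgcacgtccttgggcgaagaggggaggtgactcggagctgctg
The Cox8a window holds 19 CG dinucleotides and the Cox8b window 2. The Cox7a2 window holds 20 and the Cox7a1 window 7. In the 2 printed pairs the gene with a peak over its start in both lists was the one with more CG. The pairs not printed were not compared in this way. Over the 78 members with a RefSeq start the median was 20 CG in 300 bases, with a range of 2 to 43, against 13 over the promoters of 17491 genes and 22 over the 8899 with a peak over the start in both lists.

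Peak lengths were close in the 2 lists for most of the 88 genes. Their median length was 3276 bp for Early-B cells and 2995 bp for progenitors, beside 3222 and 2830 bp over the 11707 genes with an end peak in both. The median ratio of Early-B to progenitor length was 1.06, with a range of 0.57 to 2.31, against 1.08 over all such genes. The Early-B peak was the longer in 60 of the 88 genes, or 68.2%, where the share over all genes was 64.4%. In 27 the progenitor peak was the longer, and in Ndufab1, the mitochondrial acyl carrier protein, both were 3345 bp long. The lengths of 82 genes, or 93.2%, were within 1.5 times of each other, against 78.6% of all genes. For mitochondrial and cytosolic ribosomal protein genes in both lists the shares were 92.2% and 87.2%. Across the 88 members, which are not independent replicates, the lengths of the 2 lists had a Spearman correlation of 0.81, beside 0.76 over all genes.

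**Figure D2:**
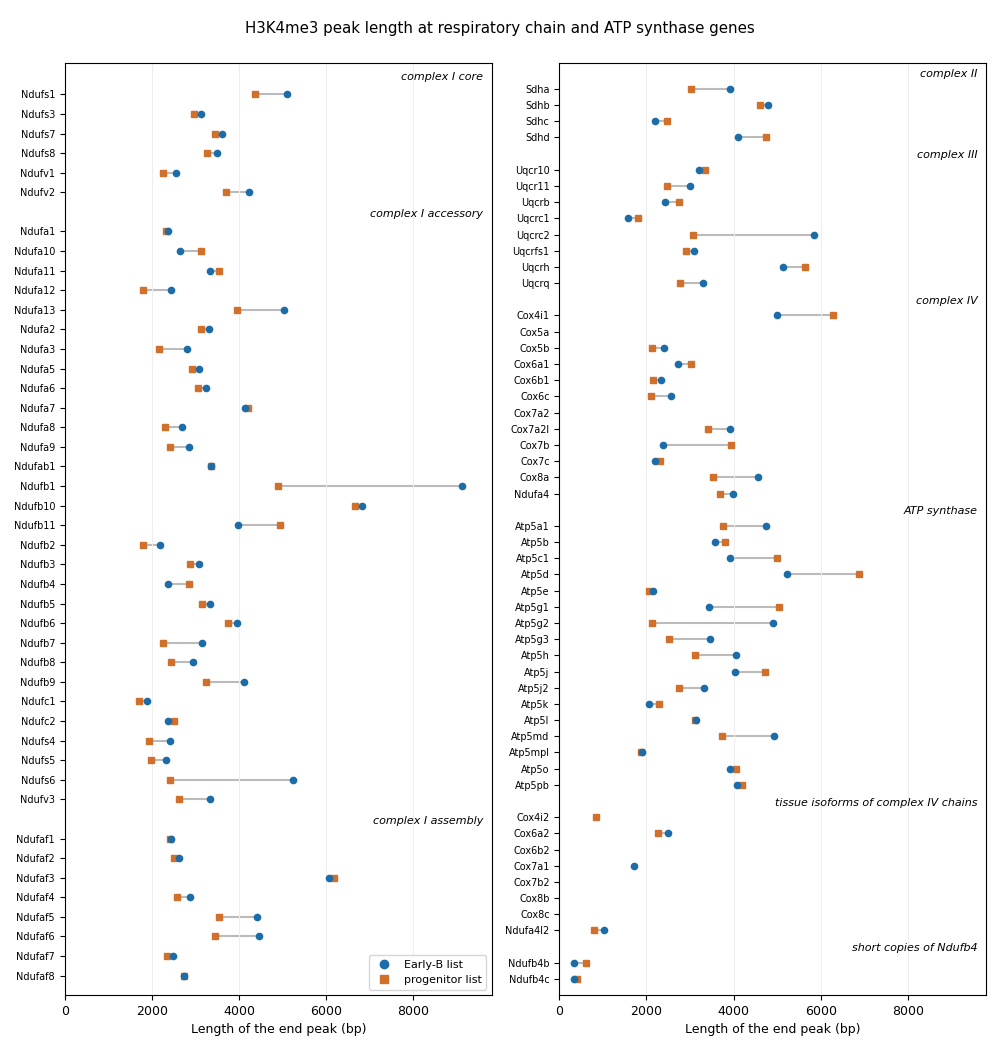
Length in bp (x axis) of the peak that stands for each member reported by name (y axis, by group) in the Early-B list (blue circles) and the progenitor list (orange squares), joined by a grey line where both exist. Most pairs lie close together, while Ndufb1, Uqcrc2 and Atp5g2 have much longer Early-B peaks, Ndufs6 has 1 long Early-B peak where the progenitor list has 2 and only the first is drawn, and Cox7b and Atp5d longer progenitor peaks.

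Over all genes 15.4% had an Early-B peak over 1.5 times as long. The count was 4 of 77 mitochondrial and 12 of 94 cytosolic ribosomal protein genes. Among the members it was 4 genes. Atp5g2, one of 3 genes for the membrane-ring c chain of ATP synthase, had peaks of 4895 bp for Early-B cells against 2120 bp for progenitors. Ndufs6, an accessory chain of complex I, had 5231 and 2409 bp, and its peak also covered the end of the mitochondrial ribosomal gene Mrpl36. The same Early-B peak lay over a second progenitor peak, of 1797 bp at chr13:73330568-73332364 with a pileup of 183, so that the stretch was called as 1 peak for Early-B cells and as 2 for progenitors. Uqcrc2, a core chain of complex III, had 5845 and 3056 bp. Ndufb1, another accessory chain of complex I, had 9116 and 4887 bp and the longest Early-B peak of all 88 genes, shared with Cpsf2. Among the gene peaks of the Early-B list their pileups stood between the 39.8 percentile for Atp5g2 and the 69.5 percentile for Uqcrc2, so none of these long peaks was above the 75th percentile. Among those of the progenitor list they stood between the 47.8 percentile for Ndufs6 and the 93.8 percentile for Uqcrc2.

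The progenitor peak was over 1.5 times as long in 2 genes, beside 6.01% of all genes. Cox7b, an X-linked chain of complex IV, had 2369 bp for Early-B cells against 3939 bp for progenitors, with the lowest pileups of the complex IV group, 78.0 and 111. The other was Ndufb4b, whose span of 471 bp is short beside the 6767 bp of Ndufb4. It and Ndufb4c, with a span of 485 bp, are copies of Ndufb4, and reads of copies may not be told apart, so their peaks are uncertain. These were the shortest of all, at 346 and 602 bp for Ndufb4b and 337 and 398 bp for Ndufb4c in the Early-B and progenitor lists. The next lowest ratios were 0.68 for Atp5g1, 0.76 for Atp5d and 0.78 for Atp5c1.

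Complex I genes mostly had the longer peak in the Early-B list. Of its 7 core genes 7 did, with a median ratio of 1.13, but the 2 peaks compared overlapped each other in only 5 of them. A peak lay over the RefSeq start in both lists in 5 core genes, a different set, and 4 of these were longer for Early-B cells. The exception was Ndufv2, whose peak at the other gene end stood for it with 4231 and 3704 bp, while over its start the lengths were 3432 and 3701 bp. Ndufs1, the largest core chain, had 5089 and 4362 bp in the Early-B and progenitor lists. Ndufv1, which binds NADH, had the shortest peaks of the core group, 2548 and 2251 bp. Ndufs3 had the highest progenitor pileup of that group, 227, in a peak shared with Kbtbd4. Of the 30 accessory genes, 23 were longer in the Early-B list, and of the 8 assembly genes 7 were. The shortest accessory peaks were those of Ndufc1, 1889 and 1713 bp, and the longest in the progenitor list was that of Ndufb10, 6655 bp, which also reached Rps2. Of the assembly genes, Ndufaf3 had the longest peaks, 6052 and 6171 bp, spanning the ends of Dalrd3 and Impdh2 as well. These counts stand beside 64.4% of all genes and were not tested.

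In 85 of the 88 genes the peaks compared overlapped, and Ndufs8 and Atp5d were among the exceptions. For Ndufs8 the Early-B peak was one shared with Tcirg1, and over the gene's start the lengths were 3875 bp for Early-B cells against 3275 bp for progenitors. For Atp5d, the delta chain of ATP synthase, the progenitor peak belonged to the end next to Midn, and over its start the lengths were 5228 and 6856 bp.

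In complexes II, III and IV the direction was divided, where 64.4% of all genes had the longer Early-B peak. These groups are small and their counts were not tested. Sdha, the flavoprotein of succinate dehydrogenase, had 3917 bp for Early-B cells against 3014 bp for progenitors, and Sdhb, its iron-sulfur chain, 4790 and 4614 bp. The membrane anchors went the other way, Sdhc with 2188 and 2467 bp and Sdhd with 4096 and 4747 bp. In complex III, 4 of 8 genes were longer in the Early-B list. Uqcrc1, a core chain, had the shortest peaks of that group, 1574 and 1801 bp, but pileups of 207 and 225 at the 98.9 and 95.2 percentiles. Uqcrfs1, the Rieske iron-sulfur protein, had 3079 and 2909 bp. The longest progenitor peak of the group was that of Uqcrh, 5635 bp, which also covered the start of Lrrc41 and had the highest progenitor pileup of the group, 249.

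Of the 10 complex IV genes with an end peak in both lists, 6, or 60%, were longer in the Early-B list, near the 64.4% of all genes. Cox4i1, the common form of the chain that Cox4i2 also encodes, had the longest peaks, 4993 and 6287 bp, shared with Emc8. Cox6c had the highest pileups of the group, 205 and 232. Cox5b, Cox6b1 and Cox7a2l, the last a factor of supercomplex assembly, had 2408 and 2131 bp, 2341 and 2153 bp, and 3905 and 3403 bp. Cox6a1 had 2734 and 3017 bp. The shortest Early-B peak was that of Cox7c, 2188 bp, and the shortest progenitor peak that of Cox6c, 2099 bp. Cox8a had 4556 and 3517 bp, and Ndufa4, first named as a complex I chain, 3986 and 3684 bp.

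Among the 17 ATP synthase genes 9, or 52.9%, were longer in the Early-B list, beside 64.4% of all genes, with a median ratio of 1.01. This difference was not tested. The catalytic head showed both directions: Atp5a1, its alpha chain, had 4752 and 3760 bp, Atp5b, its beta chain, 3570 and 3800 bp, and Atp5c1, the gamma chain of the central stalk, 3917 and 4995 bp. The 3 genes for the same c chain went different ways. Atp5g1 had 3428 bp for Early-B cells against 5030 bp for progenitors, Atp5g2 4895 and 2120 bp, and Atp5g3 3456 and 2509 bp. The shortest peaks of the group were those of Atp5mpl, 1907 and 1880 bp. The highest Early-B pileup was that of Atp5md, 233, in a peak shared with Pdcd11. The lowest were those of Atp5g2 for Early-B cells, 94.2, and of Atp5g1 for progenitors, 129.9.

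Within each list the peaks were high. Pileup was ranked among the 12966 genes with an end peak for Early-B cells and among the 12219 for progenitors. The median member among the 88 was at the 77.8 percentile for Early-B cells and the 72.6 percentile for progenitors, where all genes in both lists had medians of 54.7 and 52.0. In the Early-B list 46 of the 88, or 52.3%, were above the 75th percentile, against 27.6% of all genes in both lists. In the progenitor list 40, or 45.5%, were, against 26.0%. Peak lengths were near those of all genes, while the pileups ranked above them.

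**Figure D3:**
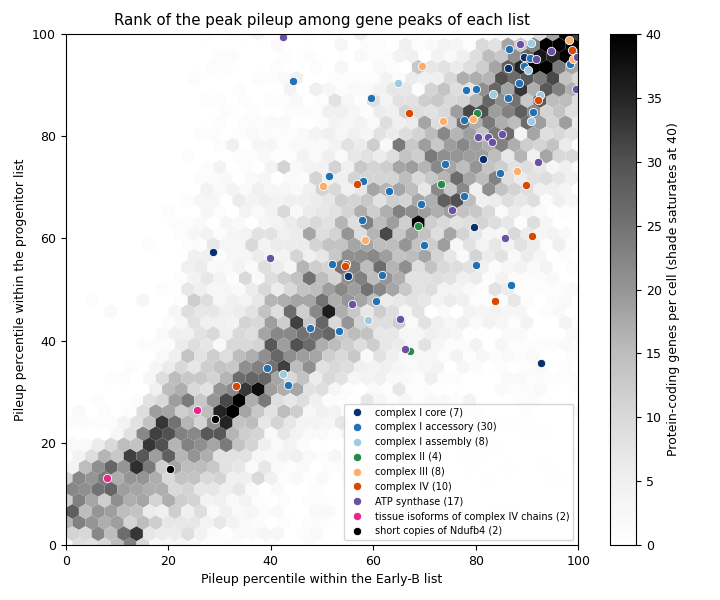
Pileup percentile of each gene's peak within the Early-B list (x axis) and within the progenitor list (y axis), for the 88 members with a peak in both lists (coloured points, by group) over all 11707 such genes (grey cells, darker with more genes). Most members sit in the upper right, the tissue isoforms and short copies of Ndufb4 at the lower left, and Atp5d and Ndufs8, whose peaks lie at different gene ends in the lists, far from the diagonal.

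The assembly factors of complex I ranked highest of the groups in both lists, with medians at the 86.7 and 88.2 percentiles. Ndufaf5 had the highest Early-B pileup among them, 172, and Ndufaf7, a methyltransferase whose peak also touched Cebpz, the highest progenitor pileup, 242. Ndufaf6 had the lowest of both, 99.5 and 118. The accessory chains of complex I ran from 93.0 for the X-linked Ndufa1 to 201 for Ndufb8 in the Early-B list, and from 112 for the X-linked Ndufb11 to 233 for Ndufb3 in the progenitor list. Cox7b, with the lowest pileups of complex IV, is on X as well. Across the 88 genes the pileups of the lists had a Spearman correlation of 0.65, beside 0.85 over all genes. It was 0.65 over the mitochondrial and 0.81 over the cytosolic ribosomal protein genes. The members' pileups spanned a narrower range, with Early-B quartiles of 123 and 164 against 72.8 and 147 over all genes. The part of this range in the correlation was not tested.

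Ribosomal protein genes, another large set of housekeeping genes, gave similar values. Of 78 mitochondrial ribosomal protein genes 77 had an end peak in both lists, with median lengths of 2898 and 2781 bp, a median length ratio of 1.06 and median pileups at the 75.2 and 73.7 percentiles. Of 101 cytosolic ones 94 had, with 4473.5 and 3848.5 bp, a ratio of 1.11 and the 73.1 and 71.2 percentiles. The cytosolic ribosomal peaks were the longer of the 3 sets in both lists. None of these differences between sets was tested.

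Other genes of energy metabolism were mostly in both lists as well. Of 44 assembly factors of the chain that the symbols above do not take in, counted with the cytochromes c, 43 were, and the exception was Cyct, the testis cytochrome c, with no end peak in either list. The somatic gene Cycs had peaks of 2886 and 2562 bp with pileups of 178 and 231. All 16 genes of the citric acid cycle were in both lists. Of 16 regulators of nuclear respiratory genes 15 were, and the exception, Gabpb1, had peaks of 5804 and 6501 bp over a start inside its span. Of 18 genes of glycolysis 15 were in both. Hk3, a hexokinase, was in the Early-B list only, with 1504 bp and a pileup of 97.8. Hk1 and Ldha had no end peak, but Ldha had peaks of 6164 and 4751 bp over its RefSeq start.

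The 78 members with a RefSeq start allowed the reach of the peak to be measured along the direction of transcription. A peak covered the start in both lists in 73 of them, or 93.6%, against 50.9% of 17491 genes. Cox7a1 had one in the Early-B list only, Ndufb4b in the progenitor list only, its Early-B peak beginning 1 bp past the start, and Cox6b2, Cox7b2 and Cox8b in neither. The median peak reached 1258 bp upstream and 1803 bp downstream in the Early-B list, and the progenitor values were 1111 and 1721 bp. The downstream side was the longer in 55 of 73 genes in the Early-B list, or 75.3%, and in 57 for progenitors, or 78.1%. Over all genes with a peak over the start in both lists the shares were 76.0% and 79.6%. The Early-B peak reached further upstream in 52 of the 73, or 71.2%, against 68.9% of the 8899 genes with a peak over the start in both lists. It reached further downstream in 37, or 50.7%, against 56.5%. These shares were near the background.

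**Figure D4:**
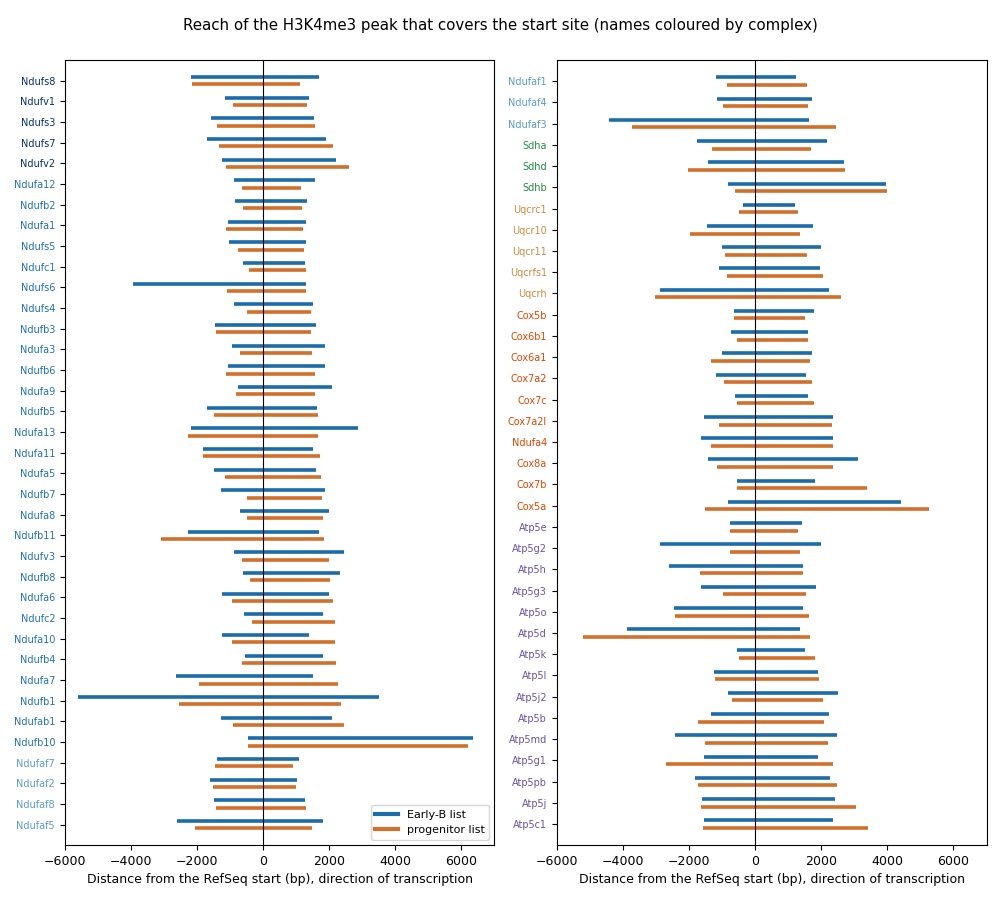
Extent of the peak that covers the RefSeq start (x axis, bp from the start, negative upstream, in the direction of transcription) for the 73 members with such a peak in both lists (y axis, names coloured by complex). Blue bars are the Early-B list and orange bars the progenitor list. The Early-B minus progenitor difference had a median of 3 bp downstream (quartiles -204 and 274) and of 182 bp upstream (quartiles -15 and 301). Ndufb1, Ndufs6 and Atp5g2 have Early-B bars that run far upstream. For Ndufs6 a second progenitor peak upstream of the start is not drawn.

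The largest differences upstream of the start were those of 3 genes. The Early-B peak of Ndufb1 reached 5601 bp upstream and the progenitor peak 2533 bp. For Ndufs6 the values were 3942 and 1098 bp, while downstream they differed by 22 bp, but the second progenitor peak of 1797 bp lay within the upstream stretch of the Early-B peak. For Atp5g2 they were 2890 and 759 bp. In the other direction, the Cox7b peak reached 1812 bp downstream for Early-B cells against 3394 bp for progenitors. The progenitor peak of Atp5d reached 5195 bp upstream and the Early-B peak 3872 bp, and for Atp5g1 the values were 2682 and 1532 bp.

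Many members had an end peak that also touched the end of a neighbouring gene. Either end of a gene counted here, so this is not a count of shared promoters. Of the 88 genes with an end peak in both lists, 47, or 53.4%, had a peak that also touched another protein-coding gene's end in each list, 46 of them the same genes, against 32.8% of all such genes for Early-B cells and 32.0% for progenitors. The shared peaks were longer, with medians of 3917 and 3275 bp against 2861 and 2509 bp for the others. The same held over all such genes, with 3664 and 3318 bp against 3002 and 2593 bp. Of the mitochondrial ribosomal protein genes in both lists, 51.9% and 50.6% had such a shared peak. Of the cytosolic ones 42.6% and 37.2% did. Starts on opposite strands that lie within 1 kb and face away from each other were found for 22 of the 78 members with a RefSeq start, or 28.2%, against 8.48% of the 17491 genes. Among genes with a peak over the start in both lists the shares were 30.1% and 15.6%. In all 22 pairs 1 peak covered both starts in each list. The starts lay at most 454 bp apart, and the members' peaks over a start had median lengths of 3194 and 2976 bp. This outcome was therefore largely set by the distance, and the share over all such pairs was not counted. Rps28 and Ndufa7 start 10 bp apart, Ndufs3 and Kbtbd4 19 bp, Sdhd and Timm8b 52 bp, Ndufb3 and Fam126b 64 bp, Sdha and Ccdc127 77 bp, Atp5md and Pdcd11 119 bp, Uqcrh and Lrrc41 199 bp and Ndufb5 and Mrpl47 308 bp. Atp5j, a stalk chain of ATP synthase, has a RefSeq start 148 bp from that of Gabpa, the gene of one of the factors named above. A peak of 4023 bp for Early-B cells against 4715 bp for progenitors covered both. The Atp5j start used for the reach of the peak is another, at chr16:84835625, beyond the Gabpa start at chr16:84835124.

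Short motifs of known regulators were searched as exact letters on both strands of the 300-base promoter windows, 1 window per gene. NRF1 was searched as GCGCATGCG, which nearly reads the same on both strands, so that matches on both overlap. It was found in 10 of 73 members with a peak over the start in both lists, or 13.7%, against 4.19% of the 8899 genes of that kind and 2.41% of all 17491. YY1, searched as AAGATGGCG, was found in 7, or 9.59%, against 3.60% and 1.94%. ETS, searched as CCGGAAGT, was found in 5, or 6.85%, against 9.54% and 5.29%. SP1, GGGCGG, was found in 45.2%, against 68.5% and 46.3%, NFY, CCAAT, in 42.5%, against 39.4% and 39.0%, and EBF1, TCCCNNGGG, in 6.85%, against 7.74% and 7.07%. At least 1 of the first 3 was present in 21 of the 73, or 28.8%, against 16.4%. A match is a description of the letters and not a site of binding, and these shares were not tested.

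**Figure D5:**
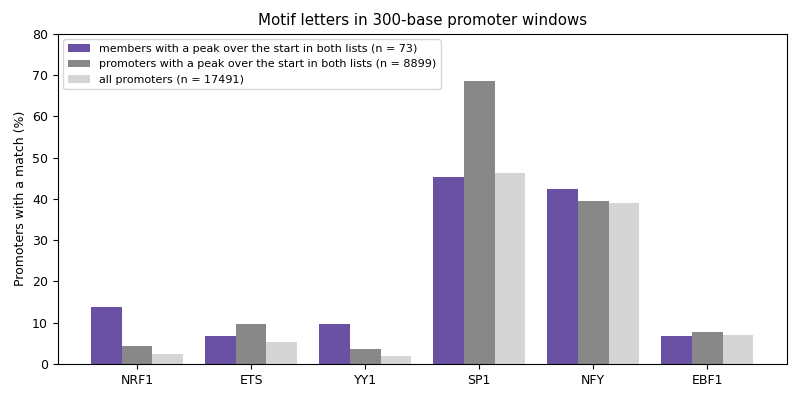
Share of promoter windows (y axis, %) with an exact match to each motif (x axis) among the 73 members with a peak over the start in both lists (purple), the 8899 genes with such a peak (grey) and all 17491 genes (light grey). The members' bars are above both others for NRF1, YY1 and, at 42.5% against 39.4% and 39.0%, NFY, and below the bar of genes with a peak for ETS, SP1 and EBF1.

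The NRF1 letters were in the windows of Ndufa8, Ndufa11, Ndufaf4, Ndufaf5, Uqcrc1, Uqcr11, Cox6a1, Atp5g2, Atp5k and Atp5l. Those of YY1 were in Ndufa9, Ndufc1, Ndufs4, Ndufs6, Ndufs7, Ndufaf8 and Atp5j2. All 7 YY1 matches lay on the gene's own strand after the start, against 53.3% of the 353 matches over all promoters. Promoters are printed for 3 of these genes because they show the NRF1 and YY1 letters at the places where they were found, and for Atp5j because its window also holds the start of Gabpa. They come from the RefSeq table, build GRCm38.p6, 5′ to 3′ along the gene's strand, and capitals mark the letters of NRF1 on either strand or of YY1. Uqcrc1 is at chr9:108936398-108936697 on the plus strand, Atp5g2 at chr15:102670998-102671297 on the minus strand, Ndufs4 at chr13:114388045-114388344 on the minus strand, and the window of the Atp5j start that faces Gabpa at chr16:84834927-84835226 on the minus strand.
Uqcrc1: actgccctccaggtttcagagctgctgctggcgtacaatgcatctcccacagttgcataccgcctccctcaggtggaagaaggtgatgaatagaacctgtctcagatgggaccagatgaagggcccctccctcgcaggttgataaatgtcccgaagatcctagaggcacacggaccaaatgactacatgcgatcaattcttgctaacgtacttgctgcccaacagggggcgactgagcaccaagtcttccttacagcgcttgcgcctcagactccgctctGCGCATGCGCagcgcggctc
Atp5g2: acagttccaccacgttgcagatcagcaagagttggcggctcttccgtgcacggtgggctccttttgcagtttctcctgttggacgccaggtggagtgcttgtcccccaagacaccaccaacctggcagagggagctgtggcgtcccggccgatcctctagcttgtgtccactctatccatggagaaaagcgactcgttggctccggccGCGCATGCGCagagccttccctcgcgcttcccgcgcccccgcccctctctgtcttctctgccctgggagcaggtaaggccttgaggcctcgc
Ndufs4: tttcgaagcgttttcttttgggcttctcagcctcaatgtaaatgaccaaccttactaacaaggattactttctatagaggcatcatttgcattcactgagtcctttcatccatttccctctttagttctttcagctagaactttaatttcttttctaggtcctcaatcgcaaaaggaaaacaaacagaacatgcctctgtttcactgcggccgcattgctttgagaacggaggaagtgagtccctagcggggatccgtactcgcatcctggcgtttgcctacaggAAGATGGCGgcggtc
Atp5j: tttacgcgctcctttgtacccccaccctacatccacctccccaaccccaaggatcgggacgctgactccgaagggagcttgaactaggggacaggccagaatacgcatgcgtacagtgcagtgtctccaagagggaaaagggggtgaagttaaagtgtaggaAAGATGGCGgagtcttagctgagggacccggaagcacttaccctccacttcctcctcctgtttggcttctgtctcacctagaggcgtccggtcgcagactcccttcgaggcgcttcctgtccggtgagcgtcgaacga
In Uqcrc1 the letters begin 30 bases after the start, and in Atp5g2 42 bases before it. In Ndufs4 the YY1 letters begin 35 bases after the start. In the Atp5j window they begin 88 bases before the start that faces Gabpa, and this window is beside the 1 counted for the gene. The 4 genes had peaks in both lists: the end peaks of Ndufs4 were 2417 and 1941 bp long with pileups of 148 and 207.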

How the data were processed

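H3K4me3 was profiled by ChIP-seq with an anti-H3K4me3 antibody (Abcam, ab8580) in Ebf1-/- progenitors and Early-B cells, with 2 H3K4me3 and 2 input samples per group in the labels and 1 deposited peak list per group, assigned by its name. The other samples of the series were not used here. MACS 1.4.3, Bowtie 1.1.2 and the builds GRCh38 and mm10 appear, per the submitters' processing notes, without a stated role. The column names resemble the output of a newer MACS than the 1.4.3 named, so the program version behind the −log10 values is unsure. The sources used here do not say whether replicates were pooled.

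Per the file headers, the authors deposited for each peak its position, length, pileup (a signal of read coverage) and fold enrichment (a ratio to background). Columns 6 and 8 have damaged names and were read from their values and order as −log10 p and −log10 q, as deposited by the authors. These values describe and rank peaks within a list. The lists hold 48054 Early-B and 31414 progenitor peaks, of which 33.2% and 33.4% have q above 0.05. Depth is unknown, so no counting error is given.

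Peaks were joined to a RefSeq gene table (assembly GRCm38.p6, to which mm10 belongs). The table has no strand or exons, so both gene ends were used with a window of 1 kb, and location in exons or introns was not analysed here. Start sites and promoter sequences came from a RefSeq promoter table that holds 78 of the 96 members. The 18 others included Atp5a1, Atp5mpl, Cox4i1, Cox4i2, Cox6a2, Cox6c, Cox8c, Ndufa2, Ndufa4l2, Ndufaf6, Ndufb4c, Ndufb9, Ndufs1, Sdhc, Uqcrb, Uqcrc2 and Uqcrq. A member is counted but not reported by name here. With 1 list per group no test was run. Counts and medians stand beside the same over all genes.

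Members, gene lists and the rule for named genes were chosen with earlier results of these data known. The rule named all members not in both lists, the isoform pairs, the main catalytic chains, each group's extremes of length and pileup, the 5 highest and 5 lowest length ratios and the shared peaks with the highest −log10 p. The alternatives were other windows, start sites, stricter thresholds, equal list lengths, the longest peak, unshared peaks, ranks among all peaks and 2 added after seeing the data. Placing was tested on simulated data. The software was Python 3.11.15 with pandas 2.3.3, numpy 2.4.6, matplotlib 3.10.9 and scipy 1.17.1.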

Additional observations from a re-analysis of the deposited data

How the results depend on the processing

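No paired analysis was possible because each group had 1 peak list and no replicate values. Of 13 alternatives, 11 were planned and 2 were added after seeing the data. They gave 82 values, of which 72 moved little and 10 moved. By the rule used, counts and percentiles could not change direction. The share of genes with the longer Early-B peak and the median length ratio could, in 12 settings each, and 0 of these values did. With 1 kb around the RefSeq starts, 74 of 78 members were in both lists, 0 in the progenitor list only and 3 in neither. With a peak anywhere in the gene or within 1 kb, 90 were in both, 2 in the Early-B list only (Cox7a1 and Cox7b2) and 3 in neither. With a −log10 p of at least 10, 0 were in the Early-B list only and Ndufa4l2 was in the progenitor list only. With a fold enrichment of at least 10, 83 were in both, 0 in the Early-B list only, 3 in the progenitor list only (Ndufb4b and Cox6a2 among them) and 10 in neither. Ranked among all peaks of a list, the median pileup percentiles were 95.04 and 90.97, against 89.3 and 83.4 over all genes. The median length ratio stayed between 1.05 and 1.07. The cause of these shifts was not tested beyond the settings' own construction. The single peaks of Cox7a1 and Cox4i2 were lost with a −log10 p of at least 10 and with a fold of at least 10, and kept with a −log10 q of at least 2. With a window of 2.5 kb Cox4i2 was in both lists and Cox5a in the progenitor list only. Added alternatives kept the 85 genes whose peaks overlap, or left out Ndufb4b and Ndufb4c, and gave 58 of 85 and 60 of 86 genes with the longer Early-B peak. Without replicates, depth or a test, differences between the lists describe this pair of lists only.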
